A study of Homo sapiens with 4 samples.

Results

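DDIT4 and 9 other genes of the control circuit around mTORC1 were followed in HCT116 cells that carried a knockout of TOP3B and in their wild-type parents. The 10 genes were DDIT4, the TSC complex genes TSC1, TSC2 and TBC1D7, the GTPase gene RHEB, and the mTORC1 genes MTOR, RPTOR, MLST8, AKT1S1 and DEPTOR, out of 35820 rows in the deposited gene table. DDIT4 was chosen by its low level in the knockout libraries, so its own values are a description with no test. The other 9 were named for their place in the pathway.

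HCT116 is a human colon carcinoma line. The wild-type group (WT) held 2 libraries of the parental line and the knockout group (KO) held 2 libraries of clone E2-4, edited with CRISPR in exon 2 of TOP3B, which encodes a topoisomerase that works on RNA and DNA. Both groups were grown in serum-supplemented Dulbecco's medium, and the labels name no drug, starvation or low-oxygen treatment. The KO group is 1 clone, so clone and genotype cannot be told apart, and the labels do not say if separate cultures were used, so p-values measure only the spread between these libraries, which may be technical. Total RNA depleted of ribosomal RNA was sequenced, and the libraries held 10450048 to 16143634 estimated counts in genes.

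mTORC1 is a protein kinase complex at the lysosome that promotes protein synthesis and cell growth when amino acids, growth factors and energy are in supply. Growth factors act through AKT, which restrains the TSC complex, a GTPase-activating complex that switches off RHEB, the direct activator of mTORC1. DDIT4, also known as REDD1, is a small protein induced by low oxygen, DNA damage and other stress that lowers mTORC1 activity through the TSC complex. These are controls on protein activity, and mRNA levels do not measure that activity.

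The region before the start of DDIT4 is shown with that of its paralog DDIT4L, since DDIT4 is a textbook target of the hypoxia-inducible factors (HIF) and both genes had lower values in KO. Capitals mark the HIF core motifs ACGTG and GCGTG, searched on both strands in the 250 bases upstream of the annotated start in the RefSeq promoter table (GRCh38.p14). The DDIT4 window is chr10:72273674-72273923 on the plus strand and the DDIT4L window is chr4:100190469-100190718 on the minus strand.
DDIT4: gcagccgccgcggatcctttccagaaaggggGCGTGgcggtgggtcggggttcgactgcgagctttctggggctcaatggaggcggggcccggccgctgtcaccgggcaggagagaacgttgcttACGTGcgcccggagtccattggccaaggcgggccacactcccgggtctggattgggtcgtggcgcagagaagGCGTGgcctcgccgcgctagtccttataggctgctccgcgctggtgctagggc
DDIT4L: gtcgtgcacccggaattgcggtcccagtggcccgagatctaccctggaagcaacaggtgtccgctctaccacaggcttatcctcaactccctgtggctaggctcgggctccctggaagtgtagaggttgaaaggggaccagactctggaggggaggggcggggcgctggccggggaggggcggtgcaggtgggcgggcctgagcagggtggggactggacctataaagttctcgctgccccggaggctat

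The DDIT4 window held 1 ACGTG, whose first base lay 125 bases before the start, and 2 GCGTG, at 219 and 53 bases. The DDIT4L window held 0 of either. Among 34943 windows of this length in the table, 18.5% held ACGTG, 32.2% held GCGTG and 43.2% held either, and 7.7% held at least 3 matches as DDIT4 did. Windows were found for 7 of the 10 members. TSC2 had 2 ACGTG in the first of its 2 windows, RHEB had 1 ACGTG, RPTOR had 2 GCGTG, MTOR and TBC1D7 had 1 GCGTG each, and TSC1 had 0. A match is a run of letters, and binding was not analysed here.

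DDIT4 was the member with the largest difference between the groups. Levels are given in CPM, a gene's count relative to its library's total, scaled with the trimmed mean of M-values (TMM). DDIT4 stood at 388.7 and 361.4 CPM in the WT libraries and at 89.5 and 78.8 CPM in the KO libraries. The group means were 375.0 ± 19.3 and 84.1 ± 7.54 CPM (SD, n = 2 each), so KO held 22.4% of the WT level, a 4.46-fold lower mean. The KO libraries lay close together and far below both WT libraries. The counts behind these levels were 5044 and 4413 in WT and 990 and 1342 in KO, and the log2 fold change of KO over WT was -2.16 (standard error 0.13). Without WT replicate 1 it was -2.10. In bulk RNA, fewer cells with DDIT4 mRNA and less of it per cell cannot be told apart. In GENCODE 29, DDIT4 overlaps the antisense gene DDIT4-AS1 over 1066 bases. Whether strand was used in counting is not given in the sources used here, so reads of such a pair cannot be told apart.

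**Figure D1:**
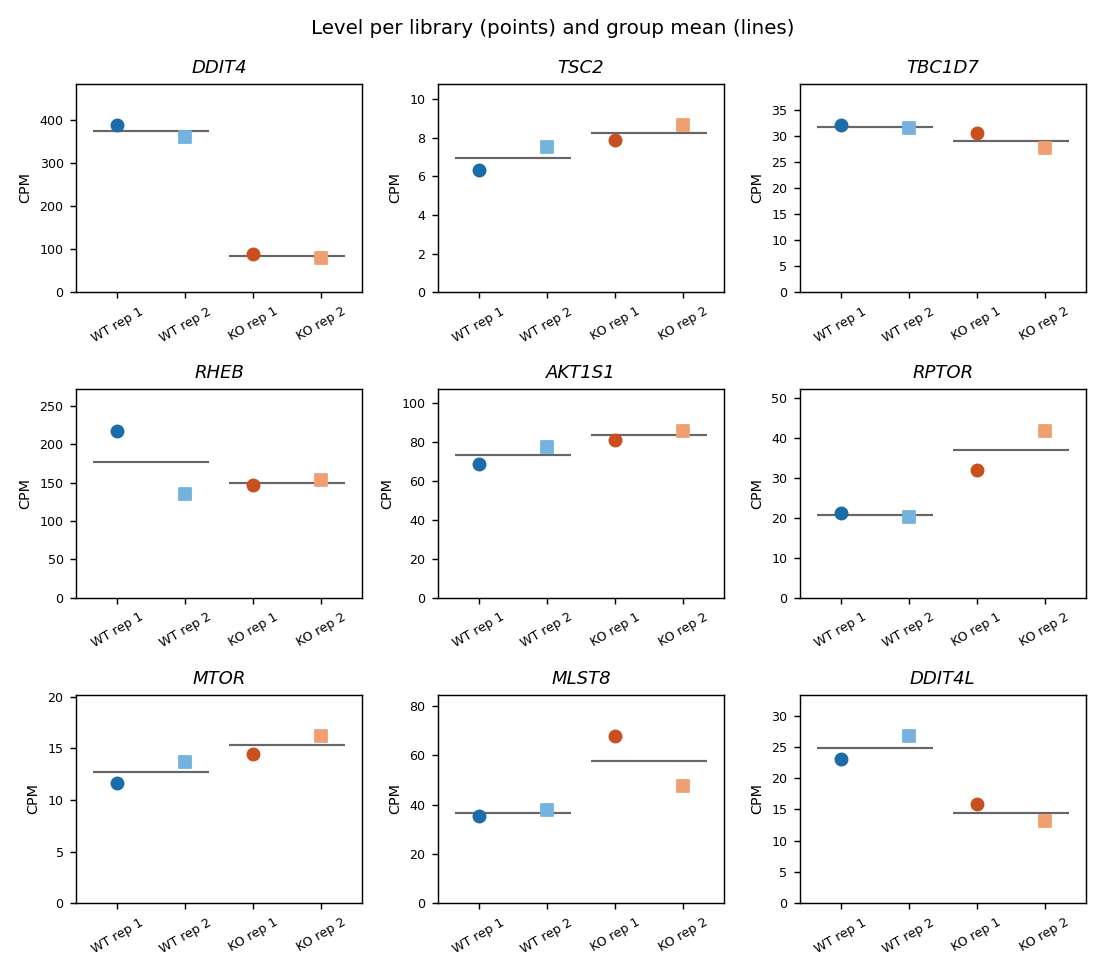
Level in CPM (vertical axes, each from 0) of the 8 tested members and of the paralog DDIT4L in the 2 WT libraries (blue) and 2 KO libraries (orange), circles for replicate 1 and squares for replicate 2, with lines at the group means. DDIT4 and DDIT4L lie lower in both KO libraries, while MTOR, RPTOR, MLST8, AKT1S1 and TSC2 lie higher in both, by small margins in MTOR, AKT1S1 and TSC2.

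WT replicate 1 was the library furthest from the KO libraries, so values without it are given below. Its TMM factor was 0.858, against 1.04 to 1.06 for the others. Of genes tested, 16.02% differed over 2-fold between WT replicate 1 and either KO library, against 9.81% to 10.7% between WT replicate 2 and the KO libraries. Between the WT libraries the share was 10.4%, and between the KO libraries 8.47%. The line's epithelial identity was visible in EPCAM at 88.25 to 138.55 CPM and in KRT8, at 110.7 to 142.6 CPM, while the gut differentiation genes VIL1, KRT20, CEACAM5 and LGALS4 were too low to test and CDX2 was at 0 CPM in KO replicate 2 and at 3.54 to 5.06 CPM in the others. TOP3B mRNA was at 57.1 and 66.5 CPM in WT and 43.9 and 54.7 CPM in KO (edgeR adjusted p = 0.522), which does not check an edit of exon 2. The summed level of the 10 measured epithelial and colon markers was 2117 to 2584 CPM in WT and 1452 to 1522 CPM in KO. In summed level that difference lay in KRT19, at 2243 and 1744 CPM in WT and 1206 and 1083 CPM in KO. KRT19 had an edgeR adjusted p = 0.293 and a DESeq2 adjusted p = 0.00298. The other 9 summed to 341.0 and 372.6 CPM in WT and 316.3 and 368.7 CPM in KO. Gene by gene, 5 of the 6 tested markers had a log2 fold change below 0. Their median was -0.46, and -0.34 without WT replicate 1. EPCAM stood at 138.5 and 93.2 CPM in WT and 89.9 and 88.2 CPM in KO. Its log2 fold change was -0.38 (edgeR adjusted p = 0.530), and -0.07 without WT replicate 1. CDH1 had -0.76 (edgeR adjusted p = 0.420), and -0.47 without WT replicate 1. KRT18 went the other way, at 0.41 (edgeR adjusted p = 0.662). In KRT19, EPCAM and CDH1 each KO library was lower than either WT library. The part of these markers in the results was not tested. Markers of leukocytes summed to at most 0.154 CPM, those of fibroblasts and endothelium to at most 1.80 CPM and those of erythroid, liver and kidney cells to at most 1.27 CPM.

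Of the other 9 members, 7 passed the filter on low counts, and 0 were called by edgeR (quasi-likelihood F-test, Benjamini-Hochberg adjusted p under 0.05 over all 12269 genes tested), where 0.00815% of all tested genes were called. DESeq2 also called 0 of them, against 1.38% of 13258 genes. At an unadjusted p under 0.05 edgeR gave 2 of them, RPTOR and MLST8, where 11.2% of all genes had such a p. Of the 7 tested, 5 had both KO libraries above both WT libraries and 1 had both below. Among all tested genes 23.5% lay above in this way and 23.5% below. With 2 libraries a group an exact permutation test of a single gene cannot go below p = 0.333.

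Of the 5 genes for the kinase complex itself, 4 were measured. Each of these had both KO libraries above both WT libraries, beside 23.5% of all tested genes. By edgeR and by DESeq2 0 of them were called. RPTOR encodes raptor, the scaffold that brings substrates to the kinase and defines mTORC1. Its level was 21.1 and 20.1 CPM in WT and 31.99 and 41.7 CPM in KO. Both KO libraries lay above both WT libraries, with a 1.79-fold higher mean. The log2 fold change was 0.84 (standard error 0.19; edgeR adjusted p = 0.304; DESeq2 adjusted p = 0.123), with an interval of 0.35 to 1.33. Such 95% intervals are for the gene alone and are not adjusted for the number of genes.

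MLST8 encodes a small WD-repeat protein bound to the kinase domain and shared by mTORC1 and mTORC2. Its level was 35.4 and 37.8 CPM in WT and 67.8 and 47.7 CPM in KO, so the KO libraries were higher but also further from each other. The log2 fold change was 0.66 (standard error 0.21; edgeR adjusted p = 0.393; 95% interval 0.12 to 1.19). Without KO replicate 1 it was 0.38. MLST8 overlaps its neighbour BRICD5 over 164 bases on the other strand, where BRICD5 had 9 to 22 counts.

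MTOR, the kinase shared by both mTOR complexes, was at 11.6 and 13.7 CPM in WT and 14.5 and 16.1 CPM in KO. The groups did not overlap, but WT replicate 2 lay nearer to KO replicate 1 than to WT replicate 1. The log2 fold change was 0.28 (standard error 0.21; edgeR adjusted p = 0.618; 95% interval -0.26 to 0.81; 0.16 without WT replicate 1). AKT1S1 encodes PRAS40, an inhibitor within mTORC1 that AKT phosphorylates. It was at 68.6 and 77.1 CPM in WT and 80.9 and 85.5 CPM in KO. Here too the groups were separated by less than the distance between the WT libraries (log2 fold change 0.19, standard error 0.13; edgeR adjusted p = 0.580; 95% interval -0.13 to 0.52; 0.11 without WT replicate 1). AKT1S1 overlaps TBC1D17 on the other strand over 1035 bases in GENCODE 29, where TBC1D17 had 161 to 187 counts, so the division of reads between them is uncertain.

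DEPTOR, the gene of another inhibitor within mTORC1, had 0 counts in every library. At 3 counts, the limit that a count of 0 leaves, its level could be 0.176 to 0.271 CPM by library, counting error only. The 4 measured subunit genes had a median log2 fold change of 0.47, and of 0.39 without WT replicate 1, beside -0.01 and 0.01 over all genes tested. With library totals in place of TMM the median of all genes was 0.14, and that of the subunit genes was 0.62.

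Among the genes of the TSC complex, TSC2, the catalytic subunit, was at 6.32 and 7.53 CPM in WT and 7.86 and 8.63 CPM in KO. The gap between the groups was smaller than the distance between the WT libraries. The log2 fold change was 0.25 (standard error 0.26; edgeR adjusted p = 0.707; 95% interval -0.42 to 0.92), from 82 to 147 counts a library, and 0.13 without WT replicate 1. TSC2 overlaps PKD1 over 778 bases and NTHL1 over 402 bases on the other strand, and their counts, 857 to 1212 and 370 to 676 a library, were well above its own. TBC1D7, the stabilising subunit, was at 31.98 and 31.4 CPM in WT and 30.5 and 27.7 CPM in KO. This was the member with the smallest difference among those tested (log2 fold change -0.13, standard error 0.15; edgeR adjusted p = 0.743; 95% interval -0.51 to 0.26), and with library totals in place of TMM its direction turned (0.03). TSC1, the scaffold subunit, had 2 and 4 counts in WT and 0 and 9 in KO and was too low to test.

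RHEB, the GTPase that activates mTORC1 and that the TSC complex switches off, was at 217.6 and 135.8 CPM in WT and 146.8 and 153.2 CPM in KO. Only WT replicate 1 was high, and both KO libraries lay between the WT libraries. The log2 fold change was -0.24 (standard error 0.24; edgeR adjusted p = 0.6996; 95% interval -0.85 to 0.38). Without WT replicate 1 the direction turned, at 0.14.

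**Figure D2:**
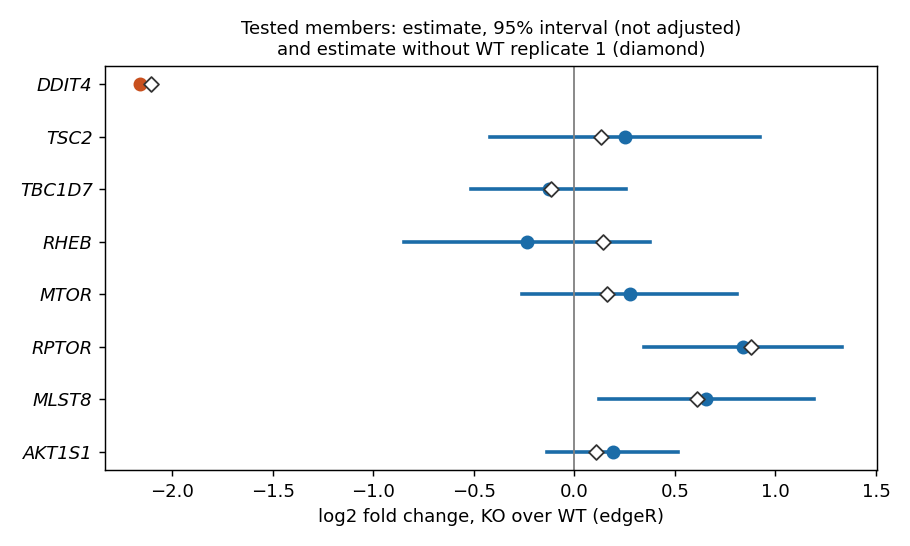
Log2 fold change of KO over WT (horizontal axis) for the 8 tested members, with 95% intervals not adjusted for the number of genes for the 7 members not chosen by their values, and the estimate without WT replicate 1 as a white diamond. DDIT4 lies near -2.16, the intervals of RPTOR and MLST8 lie above 0, and RHEB changes side without WT replicate 1.

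Levels were compared between libraries and not between members. The authors' RPKM imply a gene length of 2.09 kb for DDIT4, close to its longest GENCODE 29 transcript of 1.75 kb and its genomic span of 2.12 kb. For RPTOR the implied length was 195.5 kb, against a longest transcript of 6.41 kb and a span of 421.6 kb. For MTOR it was 74.9 kb against 8.68 kb and 156.0 kb. A length so far above the transcript makes the RPKM of long genes low, and it is not known here if reads within introns entered their counts.

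The paralog DDIT4L, which encodes the related inhibitor REDD2, was at 23.1 and 26.7 CPM in WT and 15.8 and 13.1 CPM in KO. The KO libraries lay below both WT libraries, as with DDIT4 but by a smaller amount. The log2 fold change was -0.79 (standard error 0.20; edgeR adjusted p = 0.337; DESeq2 adjusted p = 0.264). TXNIP, a stress-induced binding partner of DDIT4, had 1 count in WT replicate 1 and 0 in the other libraries. The genes of the ubiquitin ligase parts that turn DDIT4 over were close to level between groups, with log2 fold changes of 0.04 for CUL4A, 0.12 for DDB1, -0.12 for BTRC and 0.0028 for HUWE1 and edgeR adjusted p between 0.746 (DDB1) and 0.993 (HUWE1). The small values of CUL4A, BTRC and HUWE1 changed sign under other settings.

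Transcription factors known to induce DDIT4 were listed to set their levels beside it. Of 11, 10 had a row and 8 were tested, and 0 were called by edgeR or DESeq2, where 0.00815% and 1.38% of all genes were. An unadjusted edgeR p under 0.05 was found for 1 of them, near the 11.2% of all tested genes. EPAS1, which encodes HIF-2 alpha, was that gene, at 8.32 and 8.43 CPM in WT and 4.16 and 4.64 CPM in KO. Its KO libraries stood well below both WT libraries (log2 fold change -0.93, standard error 0.27; edgeR adjusted p = 0.378; DESeq2 adjusted p = 0.558). HIF1A, the other oxygen-regulated subunit, was at 350.4 and 284.3 CPM in WT and 248.0 and 274.0 CPM in KO (log2 fold change -0.28, standard error 0.15; edgeR adjusted p = 0.522; -0.12 without WT replicate 1). Their shared partner ARNT had a log2 fold change of -0.42 (standard error 0.17; edgeR adjusted p = 0.452). HIF1A, EPAS1 and ARNT were the 3 of 8 factors with both KO libraries below both WT libraries, beside 23.5% of all tested genes, and ATF4, an effector of amino acid and endoplasmic reticulum stress, was the 1 with both above (0.13, standard error 0.14; edgeR adjusted p = 0.715). SP1 was at 58.6 CPM in KO replicate 1 and 127.8 to 164.3 CPM in the other 3 libraries (log2 fold change -0.42; edgeR adjusted p = 0.728; 0.12 without KO replicate 1). The list median was -0.38, and -0.06 without WT replicate 1.

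Genes next to DDIT4 on chromosome 10 did not share its size of difference. Among the 5 RefSeq neighbours on each side, ANAPC16, a subunit of the anaphase-promoting complex, was at 228.0 and 203.2 CPM in WT and 160.5 and 164.6 CPM in KO (log2 fold change -0.41, standard error 0.12; edgeR adjusted p = 0.378). ASCC1 had a log2 fold change of -0.74 (standard error 0.26; edgeR adjusted p = 0.420), and -0.37 without WT replicate 1. On the other side DNAJB12, a chaperone partner, was at 52.2 and 49.1 CPM in WT and 62.0 and 60.2 CPM in KO (0.27, standard error 0.13; edgeR adjusted p = 0.496). The pseudogenes RPL15P14, RNU6-805P, SNX19P4 and COX7CP4 had 0 to 2 counts, and DDIT4-AS1 and the snoRNA LOC124902572 were not analysed here.

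The 8 genes nearest to DDIT4 in profile, by Euclidean distance between log2 CPM of the 4 libraries after centring each gene, were RNF43, NDRG1, YOD1, DHX40, YWHAQ, SLC2A1, RPS6KA1 and HTR7. They came from 5598 other genes with a mean of at least 20 CPM, and since the same libraries chose them their values are a description with no test. RNF43, a ubiquitin ligase that restrains WNT signalling, was nearest, at a distance of 0.27, with 91.8 and 84.8 CPM in WT and 17.9 and 20.6 CPM in KO. NDRG1 and SLC2A1, both known HIF targets, had ranks 2 and 6, at 0.52 and 0.73. NDRG1 was at 60.9 and 34.6 CPM in WT and 10.6 and 10.7 CPM in KO. Unlike DDIT4, it differed between the WT libraries. YWHAQ, which encodes a 14-3-3 protein, a family of adaptors for phosphorylated proteins, was at 47.1 and 38.4 CPM in WT and 6.42 and 5.28 CPM in KO. RPS6KA1 encodes RSK1, a kinase of the ERK pathway known to phosphorylate TSC2 and raptor. It was at 84.4 and 43.1 CPM in WT and 15.4 and 18.4 CPM in KO, with a log2 fold change of -1.91, and -1.35 without WT replicate 1. The others were YOD1, a deubiquitinase, at 0.52, the helicase gene DHX40 at 0.62, and HTR7, a serotonin receptor, at 0.80. RefSeq windows were found for 7 of these 8, and 4 of the 7 held an ACGTG or GCGTG in the 250 bases before the start, beside 43.2% of all windows. YWHAQ, SLC2A1 and RPS6KA1 held 0, and NDRG1 was the gene with no window.

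**Figure D3:**
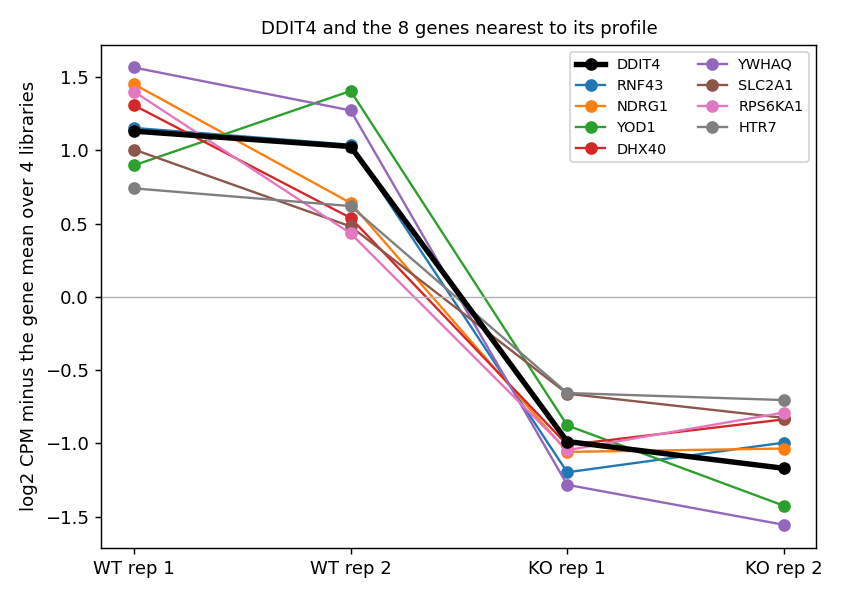
Log2 CPM of each library minus the gene's mean over the 4 libraries (vertical axis) for DDIT4 (thick black line) and the 8 genes nearest to it. All 9 genes lie above 0 in the WT libraries and below 0 in the KO libraries, and the WT libraries are furthest apart for RPS6KA1, NDRG1 and DHX40.

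The wider pathway was read from 8 lists holding 140 genes, of which 132 had a row and 113 passed the filter. The others with no row were not analysed here. By edgeR 0 were called and by DESeq2 0 were called, with 8 at an unadjusted edgeR p under 0.05, 2 higher and 6 lower, a smaller share than the 11.2% of all tested genes. In 26 both KO libraries lay above both WT libraries and in 28 below, which for these 113 genes is close to the 23.5% of all tested genes either way.

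Nutrient sensing, the arm in which RAG GTPases bring mTORC1 to the lysosome, had 25 tested genes with a median log2 fold change of 0.02, beside -0.01 over all genes. RRAGD, a RAG GTPase gene, was at 50.2 and 51.6 CPM in WT and 27.7 and 38.9 CPM in KO. Both KO libraries were lower (log2 fold change -0.61, standard error 0.20; edgeR adjusted p = 0.410). FNIP1, a folliculin partner, was at 23.3 CPM in WT replicate 1 and 52.0 to 56.8 CPM in the other libraries. Its log2 fold change of 0.50 (edgeR adjusted p = 0.635) was 0.02 without that library and 1.23 without WT replicate 2 (edgeR adjusted p = 0.0274), a fit with 1 WT library whose spread is taken from the 2 KO libraries. ITFG2 of the KICSTOR complex had 0.45 (edgeR adjusted p = 0.605; 0.13 without WT replicate 1).

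The PI3K-AKT and AMPK inputs to the TSC complex had 17 tested genes with a median of 0.12, of which 8 had both KO libraries above both WT libraries and 2 had both below, beside 23.5% of all tested genes either way. PRKAG1, a regulatory subunit of the energy sensor AMPK, was at 17.0 and 14.6 CPM in WT and 21.3 and 22.4 CPM in KO. The groups were separate (log2 fold change 0.47, standard error 0.18; edgeR adjusted p = 0.446). PDPK1, the kinase upstream of AKT, had 0.70 (standard error 0.35; edgeR adjusted p = 0.514; 1.07 without WT replicate 1), and the kinase gene GSK3A had 0.39 (standard error 0.16; edgeR adjusted p = 0.464). Without WT replicate 1 the list median was 0.04.

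mTORC2, the sister complex that activates AKT, and the SGK kinases had 5 tested genes with a median of 0.07. RICTOR, the scaffold that defines mTORC2, was at 5.39 and 13.4 CPM in WT and 21.1 and 15.3 CPM in KO. The WT libraries were further apart than WT replicate 2 was from either KO library. Its log2 fold change of 0.95 (standard error 0.47; edgeR adjusted p = 0.507) was 0.44 without WT replicate 1 and 1.77 without WT replicate 2 (edgeR adjusted p = 0.0488). PRR5, another subunit, and the kinase gene SGK3 had 0.12 and 0.07 (edgeR adjusted p = 0.764 and 0.901), and SGK3 had -0.18 without KO replicate 1.

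Direct substrates and effectors of mTORC1 had 17 tested genes with a median of -0.35, and the KO libraries were both lower than the WT libraries in 8 of them and both higher in 4, beside 23.5% of all tested genes either way. Without WT replicate 1 the median was -0.11. RPS6, the ribosomal protein phosphorylated by S6 kinase, was at 4109 and 1965 CPM in WT and 1772 and 1812 CPM in KO. WT replicate 1 alone was high, and the log2 fold change of -0.76 (edgeR adjusted p = 0.497) was -0.13 without it. The same held, in genes named after their values were seen, for the S6 kinase gene RPS6KB1 (-0.64; -0.12 without WT replicate 1) and for the translation factors EIF4B (-0.59; -0.14) and EIF4E (-0.45; 0.06). Without WT replicate 2 the WT group is 1 library, the one that was high for these 4 genes, assumed to vary like the 2 KO libraries. The log2 fold changes were then -1.18 for RPS6, -0.999 for RPS6KB1, -0.92 for EIF4B and -0.82 for EIF4E. PDCD4, an inhibitor of translation that S6 kinase marks for breakdown, was at 23.7 and 16.1 CPM in WT and 11.2 and 10.9 CPM in KO. Both KO libraries were lower, and the log2 fold change of -0.85 (standard error 0.25; edgeR adjusted p = 0.382) was -0.55 without WT replicate 1. EIF4EBP1, the repressor of cap-dependent translation released when mTORC1 is active, had 56.1 and 35.5 CPM in WT and 17.0 and 33.9 CPM in KO (-0.84, standard error 0.40; edgeR adjusted p = 0.497; -0.47 without WT replicate 1).

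ATF4 target genes, part of whose output runs downstream of mTORC1, had 13 tested genes with a median of -0.33, and -0.14 without WT replicate 1. PHGDH, the first enzyme of serine synthesis, was at 29.05 and 27.9 CPM in WT and 17.3 and 20.6 CPM in KO. Here the WT libraries lay close together and both KO libraries were lower (log2 fold change -0.59, standard error 0.17; edgeR adjusted p = 0.382). The mitochondrial folate enzyme MTHFD2 was at 396.0 and 177.8 CPM in WT and 210.8 and 153.3 CPM in KO. Its groups overlapped, and its log2 fold change of -0.66 (edgeR adjusted p = 0.556) was 0.03 without WT replicate 1 and -1.11 without WT replicate 2 (edgeR adjusted p = 0.0317). SHMT2, which makes one-carbon units from serine in mitochondria, had -0.50 (edgeR adjusted p = 0.523), and -0.14 without WT replicate 1.

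Lysosomal and autophagy genes of the TFEB network, which mTORC1 restrains, had 23 tested genes with a median of 0.02. CTSB, the lysosomal protease cathepsin B, was at 22.6 and 7.70 CPM in WT and 2.35 and 4.40 CPM in KO. The KO libraries were the lowest, but the WT libraries also stood well apart. Its log2 fold change of -2.15 (standard error 0.62; edgeR adjusted p = 0.378; DESeq2 adjusted p = 0.0618) was -1.17 without WT replicate 1 and -2.71 without WT replicate 2 (edgeR adjusted p = 0.0233). ATP6V0E1, a subunit of the lysosomal proton pump, had -0.73 (edgeR adjusted p = 0.526), with 0.02 without WT replicate 1 and -1.21 without WT replicate 2 (edgeR adjusted p = 0.00803). WIPI1, an autophagy protein, was at 7.01 and 7.70 CPM in WT and 3.61 and 5.46 CPM in KO (-0.69, standard error 0.33; edgeR adjusted p = 0.499).

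**Figure D4:**
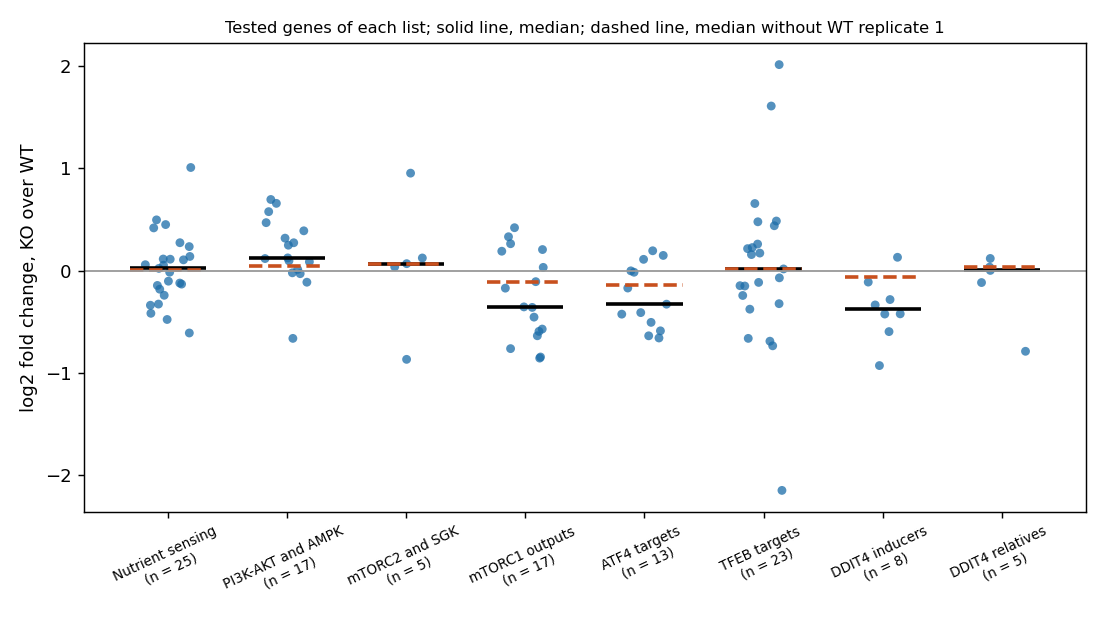
Log2 fold change of KO over WT (vertical axis) for each tested gene of the 8 lists (points), with the list median as a solid line and the median without WT replicate 1 as a dashed line. The medians of the mTORC1 outputs, ATF4 targets and DDIT4 inducers lie at -0.35, -0.33 and -0.38, and at -0.11, -0.14 and -0.06 without WT replicate 1.

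**Figure D5:**
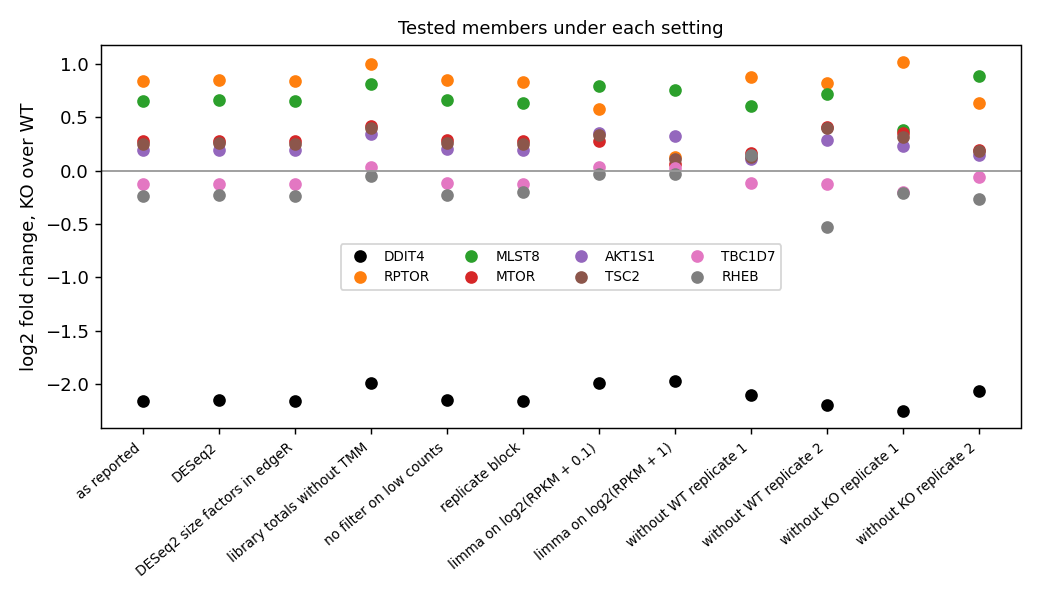
Log2 fold change of KO over WT (vertical axis) of the 8 tested members under each setting (horizontal axis). DDIT4 stays between -2.25 and -1.97, RPTOR, MLST8, MTOR, AKT1S1 and TSC2 stay above 0, and TBC1D7 and RHEB cross 0.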

How the data were processed

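Gene expression was measured in 4 libraries, 2 WT and 2 KO, grouped by their labels. The authors deposited estimated counts per gene as whole numbers and RPKM for the same libraries. The submitters' processing notes name hg19 as the build and Salmon 1.10.1 as a tool. No annotation or filter is given in the sources used here. For most genes the deposited RPKM is close to the count over the column sum and one gene length. All rows were fitted with edgeR 4.0.16 (R 4.3.3; TMM, filterByExpr, glmQLFit and glmQLFTest on genotype alone), with Benjamini-Hochberg adjustment over the 12269 genes tested and a threshold of 0.05. The standard error is the size of the log2 fold change over the square root of F. Counts were rounded before fitting, which changed none, and the functions were checked on simulated counts. Alternatives were DESeq2 1.42.0, other scalings, no filter, a replicate block, limma 3.58.1 on log2(RPKM + 0.1) and log2(RPKM + 1), and leaving out each library. Named genes were the 10 members, the DDIT4 relatives, neighbours and nearest profiles, and in each list every gene called plus the 3 of largest size of fold with a mean of at least 5 CPM. Some genes that this rule names are not reported here. The members and lists were chosen with earlier results of these data known. Chromosomes, spans and overlaps came from GENCODE 29 (GRCh38), and no coordinates of the authors' build are given.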

Additional observations from a re-analysis of the deposited data

How the results depend on the processing

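DDIT4 was lower in KO under all 11 alternatives. Its log2 fold change was -2.00 with library totals in place of TMM, -1.99 on log2(RPKM + 0.1) and -1.97 on log2(RPKM + 1), scales on which the median of all genes moved to 0.14, 0.13 and 0.06, and it ran from -2.25 to -2.07 when each library was left out in turn. Of the 9 other members 0 were called under any alternative. RPTOR ran from 0.12, on log2(RPKM + 1), to 1.02 and MLST8 from 0.38 to 0.89. The RPKM of RPTOR were 0.0923 to 0.225, well below the 1 added, which draws its fold change on that scale towards 0. On log2(RPKM + 0.1) the fold change of RPTOR was 0.58. All 4 measured mTORC1 subunit genes kept both KO libraries above both WT libraries with library totals, DESeq2 size factors and RPKM. With TMM 23.5% of all tested genes did so, and the share on the other scales is not given here. Over all genes edgeR called 1 gene, 0 higher and 1 lower, with 1372 at an unadjusted p under 0.05. The count was 183 with DESeq2 (65 higher, 118 lower), 42 with library totals (15 higher, 27 lower), 34 with no filter (7 higher, 27 lower), 4 on log2(RPKM + 0.1), 0 on log2(RPKM + 1), where 1267 had an unadjusted p under 0.05, and 0 to 575 when each library was left out, the latter without WT replicate 2. Of the pathway lists 0 genes were called except without WT replicate 2, where 9 of 116 were (FNIP1, RICTOR, RPS6KB1, EIF4E, EIF4B, RPS6, MTHFD2, CTSB and ATP6V0E1), beside 4.42% of all genes. That fit holds 1 WT library, assumed to vary like the 2 KO libraries, which alone give the spread between replicates. The cause was not tested.

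Directions turned with library totals, on log2(RPKM + 0.1) and on log2(RPKM + 1) for TBC1D7 (0.0316, 0.0342 and 0.0211) and BTRC (0.0361, 0.0241 and 0.0123). When each library was left out in turn they turned for RHEB (-0.52 to 0.14), MTHFD2 (-1.11 to 0.0323) and ATP6V0E1 (-1.21 to 0.0171), above 0 without WT replicate 1, for CUL4A (-0.0038 to 0.0892) and HUWE1 (-0.0672 to 0.0911), which turned without WT replicate 2, HUWE1 also without KO replicate 2, and for SGK3 (-0.18 to 0.29), SP1 (-1.32 to 0.12) and BTRC (-0.38 to 0.11), which turned without KO replicate 1. The cause was not tested. The replicate block gave 1 gene over all genes, 0 members or list genes, and -2.16 for DDIT4. Whether same-numbered libraries were handled together is not stated in the sources used here. Their deviations from the group means had a correlation of 0.06 across genes. With 2 libraries a group this is a single value and cannot settle if they were paired. Counts of 0 to 9 for TSC1 and 0 for DEPTOR allow no comparison at this depth.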

Other observations

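RHEBL1, a less studied relative of RHEB, was chosen after its values were seen. It had 5 and 11 counts in WT and 33 and 38 in KO, or 0.385 and 0.901 CPM against 2.98 and 2.23 CPM. Both KO libraries were higher, from few counts (log2 fold change 2.00, standard error 0.58; edgeR adjusted p = 0.374; DESeq2 adjusted p = 0.508).

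The other ribosomal S6 kinase genes of the RSK and MSK group were read beside RPS6KA1, also after its values were seen. RPS6KA3, which encodes RSK2, was at 1.93 and 1.39 CPM in WT and 0.361 and 0.528 CPM in KO (log2 fold change -1.85, standard error 0.53; edgeR adjusted p = 0.373), from 4 to 25 counts. RPS6KA4, which encodes MSK2, had 42.4 and 30.6 CPM in WT and 66.4 and 41.9 CPM in KO, so the groups overlapped (0.57, standard error 0.29; edgeR adjusted p = 0.514). RPS6KA5 had 0.16 (standard error 0.14; edgeR adjusted p = 0.666) and RPS6KA2 had -0.13 (standard error 0.74; edgeR adjusted p = 0.951), while RPS6KA6 had 2 to 9 counts and was not tested.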
